A study of Macaca mulatta with 6 samples.

Results

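The antigen presentation genes described here are HLA-DRA, HLA-DPA1, HLA-DPB1, HLA-DMA, HLA-DMB, CD74, B2M and TAP1, measured in the adrenal gland of rhesus macaques at 6 clock times. Every probe set whose platform annotation names one of these 8 genes was taken, which gave 12 probe sets of the 22283 on the array, for 8 of the 11963 genes that have a probe set naming them alone. HLA-DPA1 had 3 probe sets, HLA-DRA and B2M had 2 each and the other 5 genes had 1 each. The animals were 6 ovariectomized females, kept for 3 months in individual cages with light for 12 h and dark for 12 h a day, and fasted for 12 h before necropsy. No other treatment or genotype is given, and ovariectomy was common to all 6, so no array shows a gland with intact ovaries. Necropsies took place every 4 h from 3 AM to 11 PM, with 1 animal per time, and the RNA of each left adrenal was hybridised to 1 Affymetrix array designed on human sequence. The animals of the 3 AM and 7 AM arrays were both 12 years old. The 11 AM animal was aged 10 years plus 37 days, the 3 PM animal 8 years plus 106 days, the 7 PM animal 7 years plus 82 days and the 11 PM animal 8 years plus 70 days.

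Cells show fragments of their proteins to T cells on 2 kinds of molecule. Class I molecules, a heavy chain paired with beta-2-microglobulin, sit on nearly all nucleated cells and carry peptides that the TAP transporter pumps into the endoplasmic reticulum. Class II molecules pair an alpha with a beta chain, are guided by the invariant chain CD74 to endosomes, and receive their peptides there with the help of HLA-DM. They are typical of macrophages, dendritic cells and B cells, and in human adrenals they are also found on cortical cells of the zona reticularis. The coactivator CIITA drives the transcription of class II genes. Some genes of class I and class II chains are among the most variable of the genome, so a human probe can match the transcripts of 2 macaques unequally. These genes do not all vary alike, and how much each member differed in sequence between these animals was not tested. Animal, sequence, age and clock time differ together between these arrays and cannot be told apart. In bulk tissue, fewer cells of a type and less RNA per cell cannot be told apart either. In the RefSeq table of the macaque assembly T2T-MMU8v2.0, 7 of the 8 genes had an entry under a matching name. MAMU-DRA, MAMU-DPA, MAMU-DMA, MAMU-DMB and TAP1 lie on chromosome 4, where MAMU-DMA and MAMU-DMB are neighbours and TAP1 stands between PSMB9 and PSMB8, while CD74 lies on chromosome 6 and B2M on chromosome 7.

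Values are scaled intensities on a linear scale and are compared only within a probe set. The arrays had equal trimmed means, between 325.04 and 325.09, and correlated with each other between 0.909 and 0.930 across probe sets, which are not independent replicates. The spiked hybridisation controls were dimmer on the 3 AM array (geometric mean intensity 542) and the 3 PM array (669) than on the remaining 4, which had 948 to 1101. The 3'/5' signal ratio of GAPDH, a measure of RNA integrity, was 0.721 on the 7 AM array, the lowest, and up to 1.16 on the others. The same ratio of ACTB did not set 7 AM apart. It was 0.802 there, and ran from 0.610 at 3 PM to 0.819 at 3 AM. The cortical enzyme gene CYP17A1 had 28647 to 40394 and the chromaffin enzyme gene TH 1903 to 8245, so both parts of the gland were present on every array.

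The alpha chain gene of the DR molecule, HLA-DRA, was highest at 7 AM on both of its probe sets. On 208894_at its intensity was 1376 at 3 AM, 2318 at 7 AM, 976 at 11 AM, 726.5 at 3 PM, 1367 at 7 PM and 977 at 11 PM. The 7 AM array stood 1.69 times above the next highest, and the lowest array was the one taken 8 h later, at 3 PM. On 210982_s_at the values were 91.9, 403, 71.5, 83.5, 75.1 and 139.9 over the same times, so 7 AM was again the highest, at 2.88 times the next array. This second probe set lay under the level filter, a mean log2 value of 7.30, and was not tested. The 2 probe sets had a Pearson r of 0.72 over the 6 arrays (exact permutation p = 0.124, adjusted over 5 same-gene pairs p = 0.309; Spearman rho 0.60, exact p = 0.242, adjusted 0.593), and without 7 AM and 3 PM r was -0.35, so the relation rests on those arrays.

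The DP molecule gave a split picture at 7 AM. HLA-DPB1, its beta chain gene, had 864 at 3 AM, 2231 at 7 AM, 799 at 11 AM, 606 at 3 PM, 1320 at 7 PM and 860.3 at 11 PM. The 7 AM array was 1.69 times the next highest, at 7 PM, and 3 PM was again the lowest. HLA-DPA1, the alpha chain gene, had 360.2, 1252, 533, 423, 356 and 519.9 on 211991_s_at over these times, where 7 AM was 2.35 times the next array. On 211990_at it had 275, 164, 363, 350.4, 217 and 211, and there 7 AM was the lowest of the 6. Its remaining probe set, 213537_at, lay under the level filter and ran between 64.8 at 3 AM and 110.9 at 11 PM. The log2 difference between 211990_at and 211991_s_at departed from its median by 2.29 at 7 AM, and by at most 0.67 on the other arrays. These 2 probe sets of the same gene had an r of -0.56 (exact permutation p = 0.250, adjusted 0.417; rho -0.20, exact p = 0.714, adjusted 0.714). Sequence differences between the animals at these probes were not tested.

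**Figure D1:**
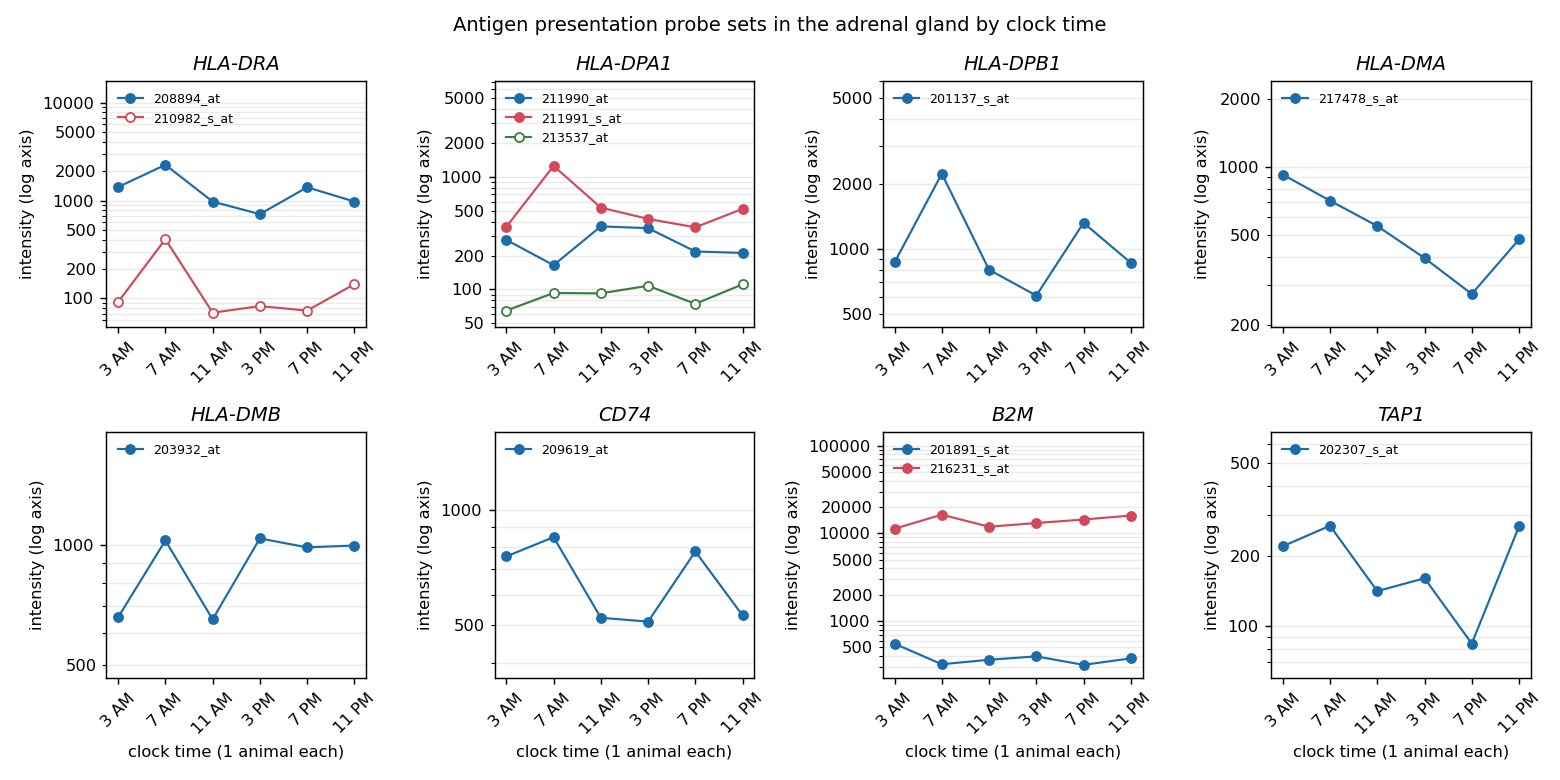
Intensity (log axis, own scale in each panel) of the 12 probe sets of the antigen presentation genes at the 6 clock times, 1 animal and 1 array per time; open symbols are the 2 probe sets under the level filter. Both HLA-DRA probe sets, HLA-DPB1 and HLA-DPA1 211991_s_at have their highest point at 7 AM, where HLA-DPA1 211990_at has its lowest, and HLA-DMA steps down from 924 at 3 AM to its lowest point, 273, at 7 PM.

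CD74 encodes the invariant chain, which fills the groove of new class II molecules and directs them to endosomes. Its intensity was 757 at 3 AM, 849 at 7 AM, 523 at 11 AM, 512 at 3 PM, 779 at 7 PM and 531 at 11 PM. The arrays of 3 AM, 7 AM and 7 PM were the 3 highest, as they were for HLA-DRA 208894_at and HLA-DPB1, although for HLA-DPB1 the 3 AM array lay barely above the 11 PM one. HLA-DRA and CD74, which lie on different chromosomes, had an r of 0.91 over the 6 arrays (exact permutation p = 0.00417, adjusted 0.0354; rho 0.94, exact p = 0.0167, adjusted 0.0944), and r was 0.997 without 7 AM and 3 PM. HLA-DRA and HLA-DPB1 had an r of 0.94 (exact p = 0.00694, adjusted 0.0394; rho 0.94, exact p = 0.0167, adjusted 0.0944), or 0.63 without 7 AM and 3 PM. These adjustments cover 17 pairs with partner genes, which were chosen after the values were seen.

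HLA-DMA and HLA-DMB encode the chains of HLA-DM, which exchanges the CD74 remnant for a peptide. HLA-DMA had an intensity of 924 at 3 AM, 708 at 7 AM, 547 at 11 AM, 394 at 3 PM, 273 at 7 PM and 477 at 11 PM. It was lower at each time than at the one before until 7 PM, and higher again at 11 PM. HLA-DMB had 657.5, 1024, 649.8, 1036.5, 984 and 995 over the same times, with 3 AM and 11 AM below the other 4 arrays and no such fall through the day. The 2 chains had an r of -0.55 (exact permutation p = 0.265, adjusted 0.507; rho -0.31, exact p = 0.564, adjusted 0.746).

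B2M, the light chain of every class I molecule, was the steadiest of these genes on its brighter probe set. On 216231_s_at it had an intensity of 11303 at 3 AM, 16358 at 7 AM, 11918 at 11 AM, 13133 at 3 PM, 14398 at 7 PM and 15981 at 11 PM. On 201891_s_at it had 552, 322, 362, 395.5, 317 and 375 over these times. The 3 AM array was thus the lowest on the brighter probe set and the highest on the dimmer one, and r between them was -0.70 (exact permutation p = 0.0958, adjusted 0.309; rho -0.60, exact p = 0.242, adjusted 0.593).

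TAP1, a subunit of the peptide transporter, had an intensity of 219.7 at 3 AM, 269 at 7 AM, 141 at 11 AM, 160.2 at 3 PM, 84.1 at 7 PM and 267 at 11 PM. All 3 arrays from 11 AM to 7 PM lay below all 3 from 11 PM to 7 AM. HLA-DMA also had its lowest array at 7 PM. TAP2, the other subunit, had 295, 357, 279, 506, 363 and 253 on 204769_s_at, its probe set with the highest mean, and was lowest at 11 PM there. On 204770_at, which lay under the level filter, TAP2 had 134.6, 94.5, 150.4, 238, 58.9 and 88.3 and was lowest at 7 PM. Both of these were highest at 3 PM, and the remaining TAP2 probe set, 208428_at, had no value above 14.6.

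Over the tested members, 6 of 10 probe sets had their highest array at 7 AM, against 16.6% of all 11108 probe sets tested. In 3 of 10 the 7 AM array was at least 1.5 times the highest other array, against 1.04% of all. With no level filter these were 7 of 12, against 14.6%, and 4 of 12, against 2.21%. Among the 6 tested members highest at 7 AM, the lead was narrow for TAP1 (1.01 times the next array), B2M 216231_s_at (1.02) and CD74 (1.09). The median ratio of the 7 AM array to the median of the other arrays was 1.54 over the 10 members, compared with 0.973 over all probe sets. The members also spread more widely than most: the highest array was at least 2 times the lowest in 6 of 10, against 29.7%, and the median of this ratio was 2.70, compared with 1.71. It was at least 1.5 times the lowest in 9 of 10, against 72% of all. Several members share a gene and all share the same 6 animals, so these counts describe 1 animal at 7 AM and carry no test.

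**Figure D2:**
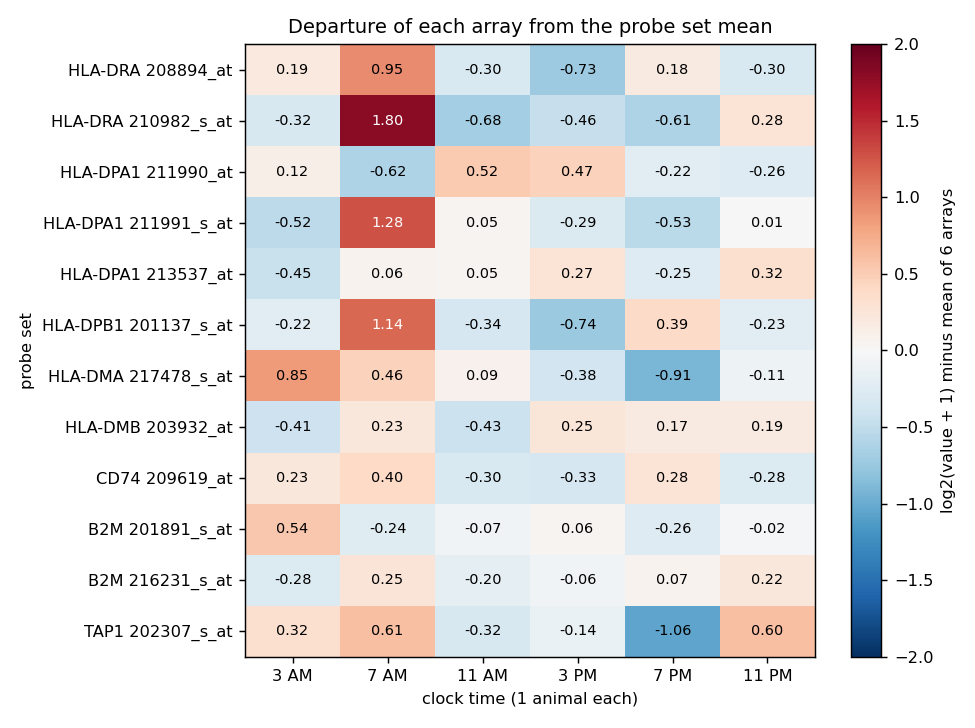
Departure of each array from the probe set's mean, as log2(value + 1), for the 12 probe sets (rows) at the 6 clock times (columns, 1 animal each); red is above and blue below the mean. The 7 AM column holds the largest departures upward, 1.80 for HLA-DRA 210982_s_at, 1.28 for HLA-DPA1 211991_s_at, 1.14 for HLA-DPB1 and 0.95 for HLA-DRA 208894_at, beside -0.62 for HLA-DPA1 211990_at.

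A cosine with a period of 24 h was fitted to each probe set to ask whether levels followed the clock. HLA-DMA was the member with the clearest curve, with a fitted peak 2.85 times its trough (log2 1.51 ± 0.32, SE, 6 arrays) at 5.45 h after midnight and an R2 of 0.891. Its p was 0.00542 by limma's moderated F test, and 0.866 after Benjamini-Hochberg adjustment over all probe sets tested. Of the 10 tested members 1, HLA-DMA, had an unadjusted p under 0.05, against 5.44% of all 11108 probe sets. After adjustment 0 of the 11108 passed by limma, where 604 had an unadjusted p under 0.05. In an exact test over the 60 circular orders of the arrays, HLA-DMA had a p of 0.05, where the smallest possible is 0.0167, and the other 11 members had p between 0.317 and 0.833.

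The other 9 tested members had an unadjusted p above 0.05. TAP1 had a fitted peak-to-trough difference of 1.24 ± 0.48 on the log2 scale, with a peak at 4.36 h (limma unadjusted p = 0.0883). HLA-DPA1 211991_s_at had 1.15 ± 0.54 with a peak at 7.52 h (limma unadjusted p = 0.166), and HLA-DRA 208894_at had 0.97 ± 0.48 with a peak at 4.79 h (limma unadjusted p = 0.200). HLA-DPB1 had 0.73 ± 0.62, HLA-DPA1 211990_at 0.66 ± 0.43, CD74 0.43 ± 0.37 and HLA-DMB 0.39 ± 0.37 (log2 ± SE). The B2M probe sets had 0.35 ± 0.35 on 201891_s_at and 0.15 ± 0.32 on 216231_s_at. The median over the 10 members was 0.70, compared with 0.44 over all probe sets, while their median R2 was 0.285, compared with 0.395, so the members spread more and fitted a 24-h curve less closely than the typical probe set.

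**Figure D3:**
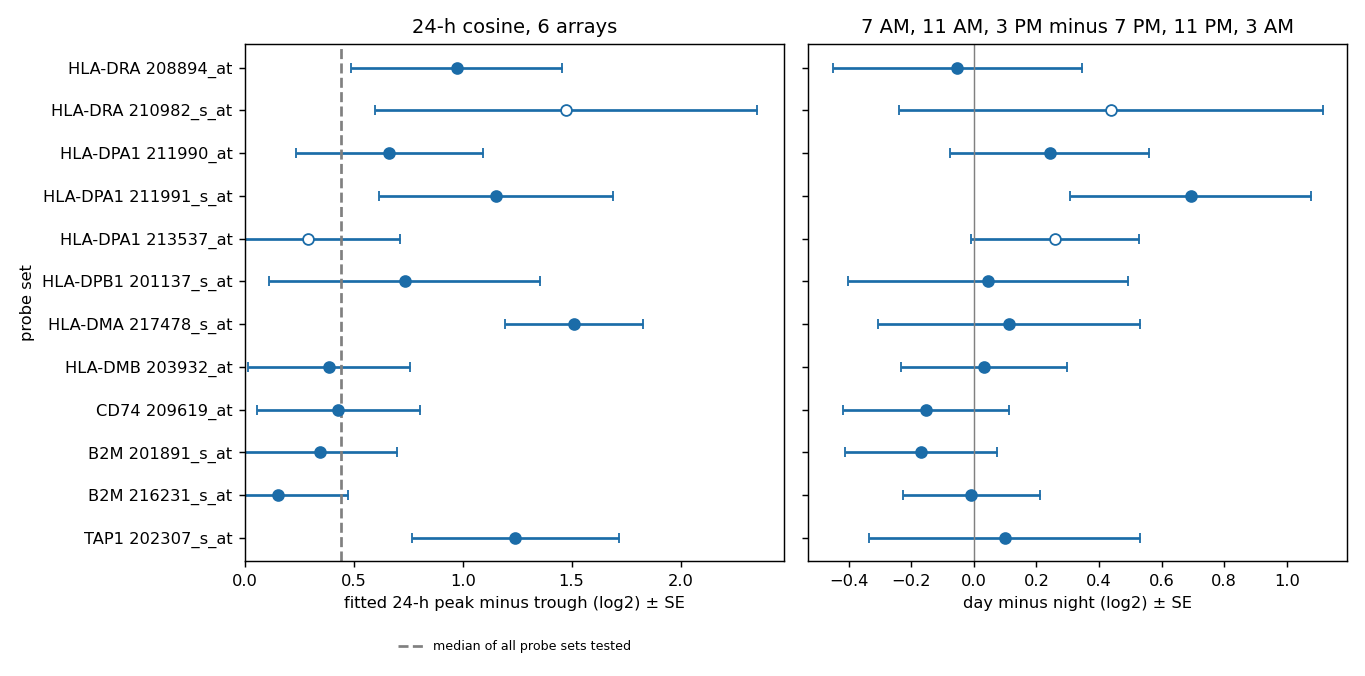
Fitted 24-h peak minus trough (left) and day minus night difference (right) of each of the 12 probe sets, as log2 values with standard errors over 6 arrays; open symbols are the 2 probe sets under the level filter and the dashed line is the median of all probe sets tested, 0.44. HLA-DMA has the largest difference relative to its error on the left, and on the right the largest is HLA-DPA1 211991_s_at at 0.69 ± 0.39.

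The arrays of 7 AM, 11 AM and 3 PM, called day here, were compared with those of 7 PM, 11 PM and 3 AM, called night by the clock alone, since the sources used here give no hour of lights-on. No member passed by limma's moderated test: 0 of 10 had an unadjusted p under 0.05, against 5.53% of all probe sets (2.93% higher and 2.59% lower by day), and after adjustment 0 of 11108 passed, where 614 had an unadjusted p under 0.05. In 0 of 10 did all day arrays lie above all night arrays, against 5.54%, and in 0 of 10 below, against 5.19%. The difference with the smallest p was that of HLA-DPA1 211991_s_at, whose 533, 1252 and 423 by day stood against 360.2, 356 and 519.9 at night (log2 0.69 ± 0.39, limma unadjusted p = 0.107). The mean was higher by day in 6 of 10 members, against 49.6% of all. The other 9 tested members had log2 differences between -0.17 and 0.24. The exact test of 3 arrays against 3 cannot go below 0.1, and the members' p ran from 0.2 to 1.

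Arrays from 11 AM to 7 PM were also compared with those from 11 PM to 7 AM, the parting in which TAP1 did not overlap, so that its values here are a description of a pattern already seen. TAP1 was lower from 11 AM to 7 PM by a log2 difference of -1.01 ± 0.27 (limma unadjusted p = 0.00456, adjusted 0.911), and HLA-DMA by -0.80 ± 0.32 (limma unadjusted p = 0.0362, adjusted 0.911). These were 2 of the 10 tested members, against 2.18% of all probe sets lower at this threshold, and 590 of 11108 in either direction. The parting was taken with the values of TAP1 and HLA-DMA known, so the count of 2 carries no test. All 3 arrays from 11 AM to 7 PM lay below the others for 1 of 10 members, TAP1, against 4.31% of all.

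The animals' ages followed the clock, with a 24-h cosine fitted to age peaking at 6.23 h with an R2 of 0.947. HLA-DMA followed age as closely as it followed the hour. Its r with age was 0.94 (exact permutation p = 0.00556, adjusted over 12 members 0.0667; rho 0.93, exact p = 0.0222, adjusted 0.267), and 0.87 without 3 AM and 7 AM. A straight line on age had an R2 of 0.886, compared with 0.891 for the cosine, which has 1 more term. With age as a covariate the fitted log2 peak-to-trough difference of HLA-DMA was 0.40 (limma unadjusted p = 0.636), so age and clock time cannot be told apart for this gene. For the other 11 members r with age lay between -0.49 and 0.59, with exact p of at least 0.219 and adjusted p of at least 0.6.

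The regulators of these genes were described from a list of 18, of which 16 had a probe set naming them alone and 13 were tested. Of the 13, 1 had an unadjusted cosine p under 0.05 by limma, CIITA, against 5.44% of all probe sets, and 0 had a day minus night p under 0.05, against 5.53%. A count of 1 in 13 is near the share over all probe sets, and the values of CIITA are given as a description. CIITA, the class II coactivator, had an intensity of 491 at 3 AM, 427 at 7 AM, 394 at 11 AM, 237 at 3 PM, 107 at 7 PM and 325 at 11 PM on 210925_at. It ranked the 6 arrays in the same order as HLA-DMA did. The fitted CIITA peak was 3.55 times the trough (log2 1.83 ± 0.44, limma unadjusted p = 0.0117, adjusted 0.866), at 6.06 h. The r between HLA-DMA and CIITA was 0.94 (exact permutation p = 0.00139, adjusted 0.0236; rho 1, exact p = 0.00278, adjusted 0.0472), and 0.94 without 7 PM and 3 AM. This pair is among the 17 partner pairs chosen after the values were seen. Both genes also stood out by the same 24-h fit on these arrays, so a high r between them follows in part from that choice. A link between CIITA and HLA-DMA was not tested. CIITA also followed age, with an r of 0.84 and a rho of 0.93.

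For the other class II pathway members, the r with CIITA was 0.19 for HLA-DRA 208894_at, 0.06 for HLA-DPA1 211990_at, 0.44 for HLA-DPA1 211991_s_at, -0.02 for HLA-DPB1, -0.50 for HLA-DMB and -0.06 for CD74. Their exact permutation p ran from 0.297 to 0.978, and whether these correlations differ from that of HLA-DMA was not tested. TAP1 had an r of 0.81 with CIITA (exact p = 0.0486, adjusted 0.165; rho 0.60, exact p = 0.242, adjusted 0.713), which was 0.21 without 7 PM and 7 AM and so rests on those arrays. The other CIITA probe sets lay under the level filter and went apart at 7 PM, where 211884_s_at had its lowest value, 17.3, and 205101_at its highest, 74.5. Among the other regulators JAK1, a kinase of the interferon receptor, ran from 889 at 3 PM to 1549 at 11 PM (log2 peak to trough 0.73 ± 0.28, limma unadjusted p = 0.0825). IRF2, an interferon regulatory factor, ran from 569.8 at 3 PM to 1359 at 7 PM (0.99 ± 0.41, limma unadjusted p = 0.112).

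**Figure D4:**
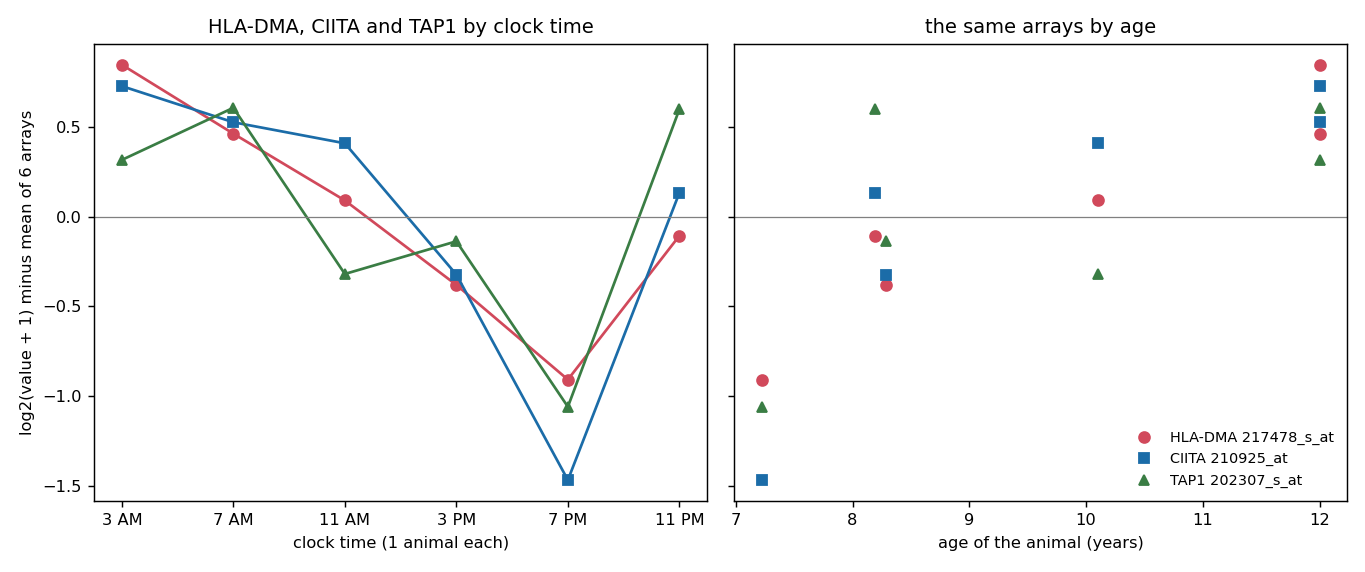
Departure from the 6-array mean, as log2(value + 1), of HLA-DMA (red circles), CIITA (blue squares) and TAP1 (green triangles) by clock time (left) and by the age of the animal in years (right), 1 animal per time. All 3 have their lowest point at 7 PM, in the youngest animal, and HLA-DMA and CIITA have their highest at 3 AM, in 1 of the 2 oldest.

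The rest of the class I pathway was taken from a list of 19 genes, of which 17 had a probe set naming them alone and 13 were tested. None of the 13 had an unadjusted p under 0.05 by limma in the cosine fit, against 5.44% of all probe sets, or in the day minus night fit, against 5.53%. A list of 13 is too short for these counts to stand apart from those shares. ERAP1, which trims peptides in the endoplasmic reticulum, came nearest on 210385_s_at, its probe set with the highest mean. There 162 at 7 AM and 431 at 11 PM were the lowest and highest arrays (log2 peak to trough 1.12 ± 0.38, limma unadjusted p = 0.0526). Its other tested probe set, 209701_at, was lowest at 7 PM (136.3) and highest at 3 PM (240.4; limma unadjusted p = 0.550). Under the level filter, 209788_s_at and 214034_at were highest at 7 AM, while 214012_at was lowest there. TAPBP, the tapasin that holds class I molecules to the transporter, had 516 to 1040.0 (0.63 ± 0.38, limma unadjusted p = 0.304), and TAP2 had 0.58 ± 0.36 (limma unadjusted p = 0.341). PSMB9, an immunoproteasome subunit encoded beside TAP1, had 721, 748, 498, 661, 594 and 589 over the 6 times, and its r with TAP1 was 0.49 (exact permutation p = 0.328, adjusted 0.507; rho 0.54, exact p = 0.297, adjusted 0.713).

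Heavy chain probe sets shared the high value at 7 AM. Of 17 tested probe sets naming 1 of 5 class I heavy chain genes, 13 were highest at 7 AM, against 16.6% of all probe sets tested, and in 2 the 7 AM array was at least 1.5 times the next, against 1.04%. These probe sets share genes, probes and animals, so the counts carry no test. HLA-C 208812_x_at had 3682, 13090.0, 5228, 6074, 8069 and 6650.0 from 3 AM to 11 PM, so that 7 AM was 1.62 times the next highest. The probes of such probe sets can bind transcripts of several near-identical heavy chain genes, so the gene behind these values is uncertain. Of the other heavy chain probe sets 4 were highest elsewhere, so this high was not on every one.

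The rest of the class II pathway was a list of 17 genes, of which 13 had a probe set naming them alone and 7 were tested. None of the 7 had an unadjusted p under 0.05 by limma in either fit, against 5.44% of all probe sets for the cosine and 5.53% for day minus night, which is likewise near those shares. HLA-DQB1, the beta chain gene of the DQ molecule, had 452, 894, 436, 578, 481 and 316 over the 6 times, and HLA-DRB1, the partner of HLA-DRA, had 2401, 4780, 2708, 2627, 3273 and 2234. Both were highest at 7 AM, at 1.55 times the next array for HLA-DQB1 on 211654_x_at and 1.46 times for HLA-DRB1 on 208306_x_at. On the other tested HLA-DQB1 probe set, 211656_x_at, 7 AM was 1.13 times the next. Under the level filter, 209823_x_at had 305.4 at 7 AM and 276 at 7 PM, but 26.7 at 11 AM and 13.9 at 11 PM. Sequence differences between the animals and binding to similar transcripts were not tested for these probe sets. HLA-DOA, a chain of the HLA-DM inhibitor HLA-DO, had 284 to 415, with 7 AM and 3 AM as its lowest arrays (log2 peak to trough 0.52 ± 0.28, limma unadjusted p = 0.237). CTSH, a lysosomal protease, had 662.5 to 952 (0.54 ± 0.27, limma unadjusted p = 0.202). The probe sets of CTSB went apart at 7 AM. On 200839_s_at, its probe set with the highest mean, 7 AM was the highest array (2012), and on 200838_at it was the lowest (388). On 213274_s_at the highest array was 3 AM (1372).

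Markers of the cells that carry class II did not all move with these genes at 7 AM. The macrophage list, 9 tested of 16 genes, had a mean log2 departure of 0.24 at 7 AM, and its summed intensity was 2678 to 3388 by day and 2468 to 2898 at night. CD163, a macrophage scavenger receptor, had 127, 316, 257, 236, 137 and 236 from 3 AM to 11 PM. It was 1 of 3 among the 9 that were highest at 7 AM, with C1QB and FCER1G, against 16.6% of all probe sets tested. CSF1R, MRC1 and VSIG4 were highest at 11 PM, LYZ and TYROBP at 3 PM, and AIF1 at 7 PM. Still, 8 of the 9 stood above their own mean at 7 AM. Their median ratio of 7 AM to the median of the other arrays was 1.28, compared with 0.973 over all probe sets. CD163, C1QB and LYZ, 3 of the 9, were higher by day at an unadjusted p under 0.05 by limma, against 2.93% of all. All 9 share the same 6 animals, so these counts carry no test. The dendritic cell list, 5 tested of 10, had a departure of -0.40 at 7 AM and sums of 854 to 1224 by day and 1102 to 1502 at night. The B cell list, 4 tested of 7, had -0.16 and sums of 875 to 1252 by day and 948 to 1172 at night, and the pan-leukocyte list, 4 tested of 7, had 0.01 and sums of 1979 to 2364 by day and 1818 to 2277 at night. The chromaffin list, 7 tested of 10, stood highest at 7 AM with a departure of 0.63, and its sum was 22482 to 36957 by day and 14609 to 22115 at night. The adrenal cortex list, 11 tested of 12, had -0.07 at 7 AM, the T and NK cell list, 4 tested of 12, 0.15, and the endothelial list, 9 tested of 10, -0.10. On the probe set with the highest mean of each listed gene and on those of the members, no value was 0 on any array, and the lowest was 3.4. The part of cell makeup in the 7 AM values was not tested.

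**Figure D5:**
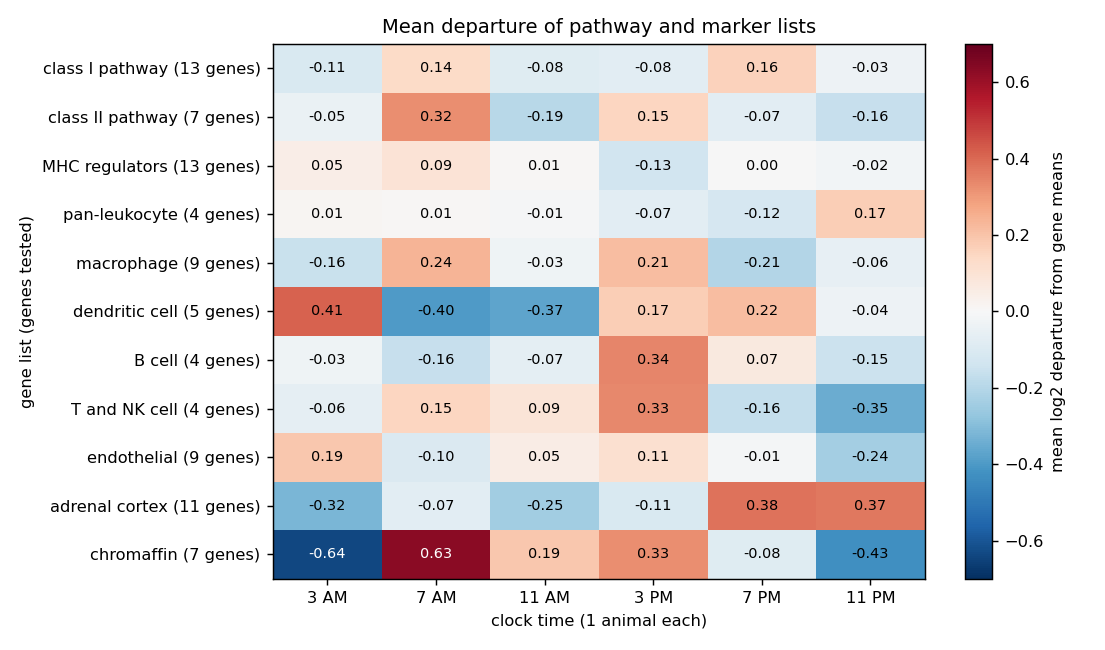
Mean log2 departure of the tested genes of each pathway and cell type marker list (rows, with the number of genes) from their own means at the 6 clock times (columns, 1 animal each). At 7 AM the chromaffin list stands at 0.63, the class II pathway at 0.32, the macrophage list at 0.24 and the dendritic cell list at -0.40.

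Other genes with profiles most like those of the members were found among 7055 tested probe sets that name 1 gene and vary at least 1.5-fold. Most like HLA-DRA 208894_at were NISCH (r 0.98 over 6 arrays), VSNL1 (0.97) and UBE4A (0.97), and NISCH had 1908, 3567, 1592, 1079.6, 1773 and 1388.5 over the 6 times. Most like B2M 216231_s_at were REEP5 (0.98), QRICH1 (0.96) and 211530_x_at (0.96), a probe set annotated to the human heavy chain gene HLA-G. The macaque transcript behind that probe set is uncertain. Most like TAP1 were MICU2 (0.99), RBM15 (0.98) and NAP1L1 (0.98). With 6 arrays, r was above 0.9 for 42 of the 7055 with HLA-DRA, 36 with B2M and 53 with TAP1.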

How the data were processed

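One array per animal measured adrenal RNA from 6 macaques, 1 at each clock time, so p-values rest on the spread between single animals and the number of arrays limits the precision. The values are probe set intensities on a linear scale, as deposited by the authors; equal trimmed means, with 2% left out at each end, show that they had been scaled. Neither the software nor the summary method is given in the sources used here. RNA was copied from an oligo-dT primer, amplified by in vitro transcription and biotinylated, per the labels' protocols. Of the 22283 probe sets, 68 are controls; 19065 name 1 gene, 1043 several and 2107 none in the platform annotation. No gene was named from a probe set with several.

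Values were put on a log2 scale after adding 1, which is the scale of every fold change. A probe set was tested where its mean log2 value reached the median of the non-control probe sets (7.30), which left 11108 probe sets and 10 of the 12 members. With limma 3.58.1 in R 4.3.3, a 24-h cosine (moderated F test, 3 residual degrees of freedom) and a day minus night contrast (3 arrays against 3) were fitted to all of them, with Benjamini-Hochberg adjustment and a threshold of 0.05. Correlations over arrays used exact permutation of pairings, two-sided. The fits were tested on simulated data.

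Named genes are all members, the 3 genes with the smallest cosine p in each of the class I, class II and regulator lists, and the 3 genes with the profiles most like those of HLA-DRA, B2M and TAP1. Further genes are named for their values, seen beforehand. The members, lists and alternatives were chosen with earlier results of these data known. Alternatives were the level filter, the pseudocount, quantile normalization, median centring, 1 probe set per gene, other variance priors, age as a covariate, another parting of the day and leaving out arrays.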

Additional observations from a re-analysis of the deposited data

How the results depend on the processing

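With 1 array per clock time, each value rests on 1 animal, and no alternative parts clock time from age or from the animal's own sequence. No paired analysis was possible because every clock time holds a different single animal, so the groups share fewer than 2 replicate numbers. Of 310 values of single members under the alternatives, 274 kept their direction and their side of the threshold. The fitted peak-to-trough difference is positive by construction and could not change direction. All 27 reversals were therefore among the day minus night differences. Most values were above the threshold in the main fit, so the count of 274 says little about stability. The cosine of HLA-DMA stayed under an unadjusted p of 0.05 by limma in 15 of 16 alternatives, the exception being age as a covariate (0.40 on the log2 scale).

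Among all probe sets, the count with an adjusted cosine p under 0.05 was 1, PER2, with the filter at the 75th percentile, against 0. The unadjusted cosine count was 604; without a level filter it was 1141, and it was 347 with the filter at the 75th percentile and 398 with 1 probe set per gene, and the day minus night count of 614 became 1117, 376 and 386 in that order; leaving out arrays gave 521 to 799 and 544 to 655. The first 3 alternatives tested 22215, 5554 and 7164 probe sets in place of 11108, so their counts cannot be set beside 604 and 614 directly. What else changed these counts was not tested. Members under the cosine threshold were 0 with age as a covariate, 3 without the 3 AM and 3 PM arrays (HLA-DMA, HLA-DPA1 211991_s_at and TAP1), and 1 to 2 with an array left out, where HLA-DRA 208894_at joined without 7 PM, HLA-DPA1 211991_s_at without 3 AM, and TAP1 without 3 PM or without 11 PM. Members under the day minus night threshold were 2 with day as 11 AM to 7 PM, and 0 to 1 with an array left out, where HLA-DPA1 211990_at joined without 7 AM and HLA-DPA1 211991_s_at without 3 PM.

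Some day minus night differences, none of them under the threshold in the main fit, changed sign. With day as 11 AM to 7 PM the log2 difference was -0.51 for HLA-DPA1 211991_s_at, -0.46 for HLA-DPB1, -0.80 for HLA-DMA, -0.0049 for HLA-DMB and -1.01 for TAP1. Those of HLA-DMA and TAP1 were under an unadjusted p of 0.05 by limma. This parting moves the 7 AM array out of day and the 7 PM array into it, so it is a different contrast. Without the 3 AM and 3 PM arrays it was 0.38 for HLA-DRA 208894_at, -0.28 for HLA-DMB and 0.052 for CD74. With an array left out it ran from -0.54 to 0.30 for HLA-DRA 208894_at, -0.51 to 0.43 for HLA-DPB1, -0.31 to 0.56 for HLA-DMA, -0.16 to 0.25 for HLA-DMB, -0.34 to 0.056 for B2M 201891_s_at, -0.15 to 0.10 for B2M 216231_s_at and -0.41 to 0.42 for TAP1. The cause of these changes was not tested.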
